A study of Rattus norvegicus with 24 samples.

Results

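Interleukins are secreted messengers of immune and epithelial cells, and each acts on cells that carry its receptor chains. Many receptors share a chain: the γ chain *Il2rg* serves the receptors of IL-2, IL-4, IL-7, IL-9, IL-15 and IL-21, and the gp130 chain *Il6st* serves those of IL-6 and IL-11. Receptors of the IL-1 family signal through MYD88 and IRAK kinases, whereas most others signal through JAK kinases and STAT factors. In skin, keratinocytes make IL-1, IL-18 and IL-36 ligands, and infiltrating lymphocytes and macrophages bring in further ligands and receptors.

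The genes described here are all those on the array whose name starts with Il and a number, which covers interleukins, their receptor chains and receptor-like genes. They are 60 genes of 7263 distinct gene names and are read by 67 probes of 8453. By RefSeq, some have newer names: *Il1f5* is *Il36rn*, *Il1f6* is *Il36a*, *Il1f8* is *Il36b*, *Il17r* is *Il17ra*, *Il8ra* is *Cxcr1*, *Il8rb* is *Cxcr2*, *Il4ra* is *Il4r*, *Il6ra* is *Il6r* and *Il1rl1l* is *Tmed1*. Of the 67 probes, 47 were matched by accession and the rest by name.

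Paired skin explants came from 12 male BN rats aged 15 weeks. One explant was co-cultured for 3 days with allogeneic PVG lymphocytes stimulated beforehand for 7 days against irradiated BN spleen cells (a mixed lymphocyte reaction, MLR). The other explant was cultured with syngeneic BN lymphocytes, which had also been kept for 7 days with irradiated BN spleen cells (a syngeneic MLR). The design models in culture how grafted lymphocytes attack the skin of a host. All explants were paw skin and both groups had received lymphocytes. No explant cultured in medium alone was on these arrays, and the explants were washed before RNA was prepared, so that lymphocytes still in or on the skin are part of each sample. Both RNA samples of a rat were hybridized together to 2 two-color arrays with the dyes exchanged, which gives 24 arrays and n = 12 rats.

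Values are log2 ratios of the allogeneic-labeled over the syngeneic-labeled sample, the mean of both arrays of a rat, and a call is an adjusted p under 0.05 (limma against 0, Benjamini-Hochberg over 8453 probes). The signs follow the dye labels of the samples and are opposite to those the study gives for this comparison. The study took its direction also from RT-PCR of genes outside the members in some of these pairs. Among them was *Aif1*, a macrophage marker given below. That RT-PCR does not depend on the dye labels, and for most genes tested so the study reports the direction of its own arrays. It was not analyzed here, so the direction is not settled. A negative value therefore stands only for a weaker signal in the sample labeled allogeneic. If the labels were turned, every direction given here would turn too. Levels are log2 normalized intensities of a probe in 1 sample and are not compared between probes. In such mixed tissue, fewer cells of a type and less RNA per cell cannot be told apart.

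Rat 8 stood apart from the others. Across the probes of the array, its log2 ratios had correlations of 0.0998 to 0.241 with those of the other rats, which had 0.285 to 0.823 among themselves, while its own 2 arrays had 0.944. Without rat 8, the means of 20 member probes moved by over 1.5 times or changed sign, and 0 of these were among the called. The values without it stand beside the called members that it changed and beside the larger of these shifts. Array 1 of rat 10 was far brighter than the other arrays, and the 2 arrays of this rat had a correlation of 0.133. Without that array, 20 members were called in place of 18. Rat 10 held the lowest or highest allogeneic-labeled level of 56 of 67 probes, so ranges and medians of levels are given over the other 11 rats. All 3 slides carried 4 rats each with both groups on every array. Between slides, 0 probes differed at an adjusted p under 0.05 (limma F test). At an unadjusted p under 0.05 in this test were 8 of the 67 member probes and 217 probes in all. The latter are 2.57% of all probes, so such differences were more frequent among the members. With 4 rats per slide, differences between slides are thus not excluded, and their cause was not tested.

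Of the 67 probes, 18 were called, which is 26.9% against 17.3% of all probes on the array. Lower in the allogeneic-labeled sample were 14 (20.9%, against 8.48% of all probes), and higher were 4 (5.97%, against 8.78%). The calls fell on 16 genes, 12 lower and 4 higher, and 44 genes had no called probe. Without rat 8, 21 of the 67 probes were called, 17 lower and 4 higher, or 31.3% against 24.7% of all probes. With the background offset used here, no mean reached a log2-fold change of 1 in size, while without an offset *Il1b* (-1.08), *Il2rb* probe 1 (-1.14) and *Il9* (-1.22) did. The median over the 67 probes was 0.0052, beside 0.011 over all probes. In 12 of 12 rats the same sign was found for 8 of the called probes, and the means of the 3 slides had the same sign for all 18 called probes. Their sizes differed between slides for some, as for *Il9* (-0.14, -0.72 and -0.90 on slides 1, 2 and 3) and *Il9r* (-0.37, -0.23 and -0.96). For others they were alike, as for *Il10ra* (-0.16, -0.20 and -0.19).

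**Figure D1:**
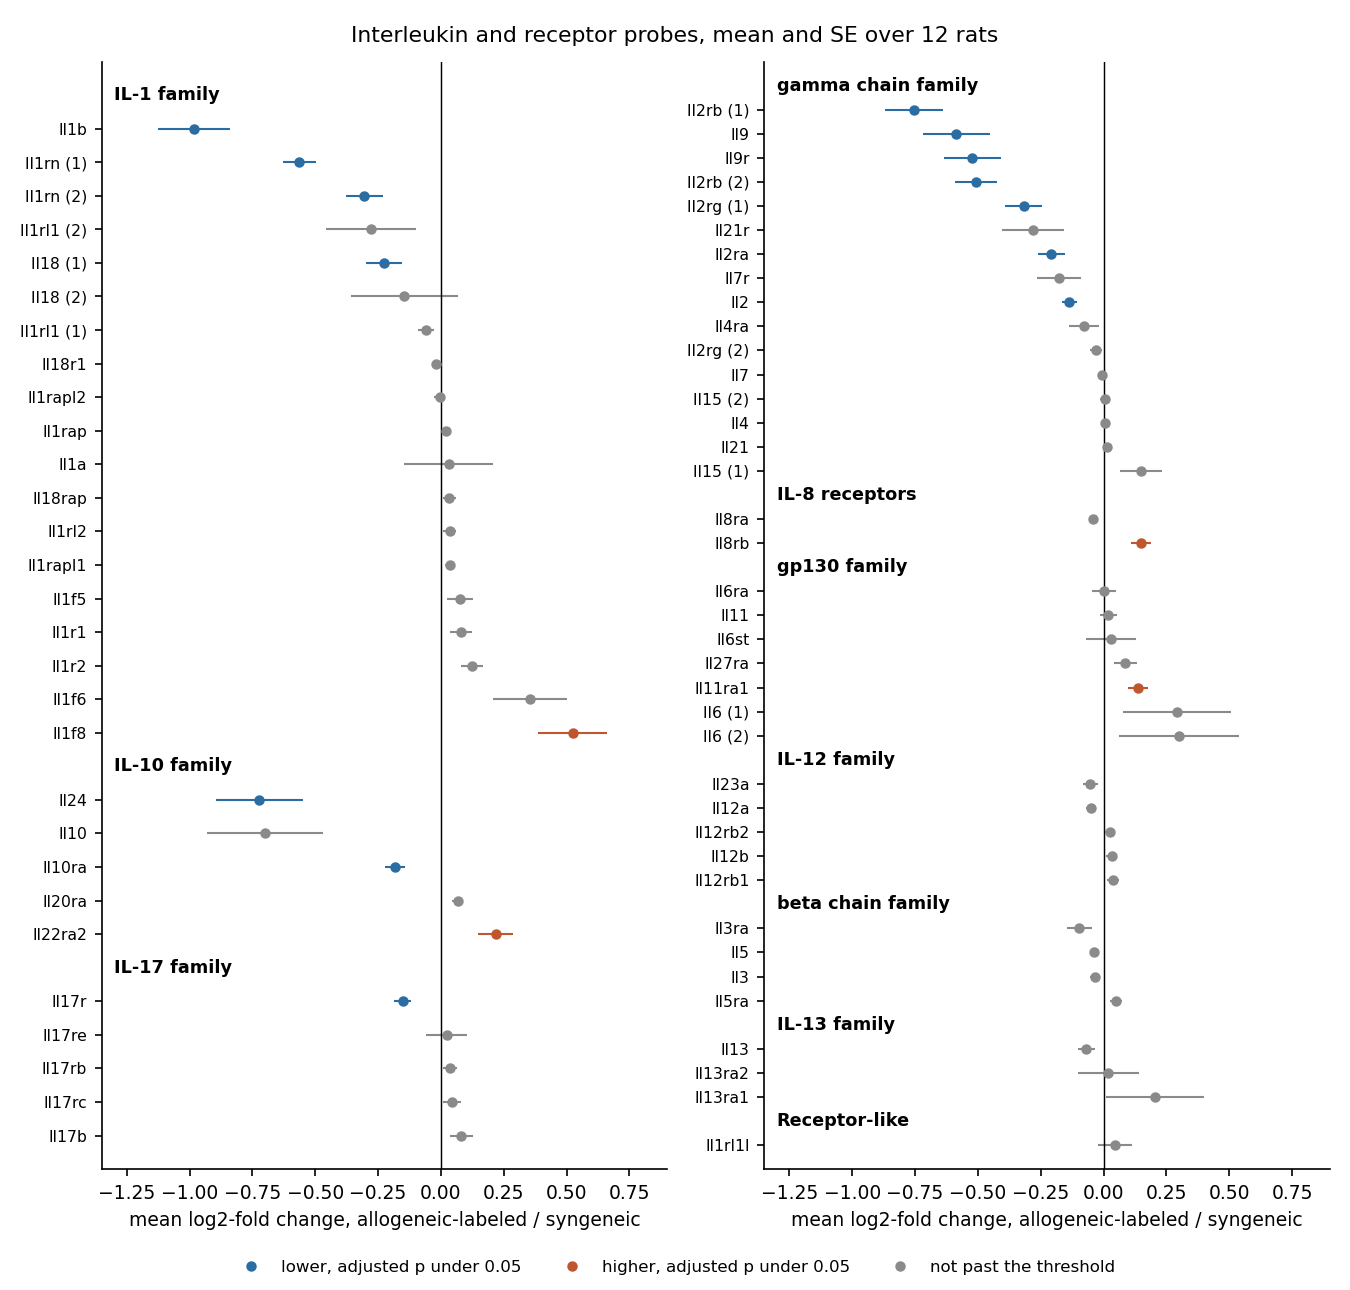
Mean log2-fold change (allogeneic-labeled over syngeneic, horizontal axis) of all 67 probes, with bars for the SE over 12 rats, grouped by family. A number in brackets tells probes of a gene apart, blue and orange points passed the threshold, and the 14 lower calls lie mostly in the IL-1, γ chain and IL-10 families.

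The IL-1 family held the lowest mean of the members. *Il1b*, the secreted pro-inflammatory IL-1 ligand, had levels from 8.39 to 9.57 with a median of 8.88 in the allogeneic-labeled samples, and from 9.25 to 11.38 with a median of 9.84 in the syngeneic ones. These ranges overlap between rats, but within every rat the allogeneic-labeled sample was lower. The log2 ratio ran from -2.00 in rat 9 to -0.39 in rat 7, with a median of -0.80. The mean was -0.98 (SE 0.144, adjusted p = 0.000634). Rats 2, 9 and 11 were the lowest, each below -1.5 in log2.

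*Il1rn*, the antagonist that blocks the IL-1 receptor without signaling, was lower by both of its probes. Probe 1 ran from -1.10 in rat 7 to -0.22 in rat 5 with a median of -0.55, and its mean of -0.56 had the smallest adjusted p of the members (SE 0.0649, adjusted p = 0.000151). Probe 2 ran from -0.94 to 0.06 with a median of -0.24 and was below 0 in 11 of 12 rats (mean -0.30, SE 0.0742, adjusted p = 0.0131). Both probes thus moved one way, and the lowest rat differed, rat 7 by probe 1 and rat 8 by probe 2. Without rat 8, probe 2 had a mean of -0.25 (adjusted p = 0.00538).

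*Il1f8*, which encodes IL-36β, an epithelial ligand of the same family, went the other way. Its log2 ratio ran from -0.14 in rat 3 to 1.58 in rat 8 with a median of 0.60, and 9 of 12 rats were above 0. The mean was 0.52 (SE 0.136, adjusted p = 0.0181), and 0.43 without rat 8 (adjusted p = 0.0123). *Il1f6*, the IL-36α ligand next to it, had a mean of 0.36 with 9 of 12 rats above 0 and was not called (adjusted p = 0.122). *Il1f5*, the IL-36 receptor antagonist, had a mean of 0.08 and was not called either. These genes and *Il1rn* lie within 127 kb on chromosome 3, so that a lower and a higher call stand close together there.

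The sequences that measured these opposite calls are given as the first 30 bases of each 60-base probe, 5′ to 3′, with the place of the whole probe in the rat build rn3 as the scanner files state it; whether a probe lies in coding or untranslated sequence was not analyzed here.
*Il1b*, chr3:116870038-116870097, minus strand: gctgaaaatgaagagtttcatattgtgtgg
*Il1rn* probe 1, chr3:2613130-2613189, plus strand: ccagagtatgtgttatttgtgctcatggaa
*Il1rn* probe 2, chr3:2609534-2610568, plus strand: agaagaaaagatagacatggtgcctattga
*Il1f8*, chr3:2511014-2511073, minus strand: tcttccacagcaagacaaacaatcattctt
The coordinates of *Il1rn* probe 2 span 1035 bases, more than its length, so that it does not align in 1 piece, whereas probe 1 lies further along the gene in 1 piece.

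*Il1a*, the other IL-1 ligand, did not share the pattern of *Il1b*. Its log2 ratio ran from -0.60 to 1.76 with a median of -0.17, and 8 of 12 rats were below 0. The mean of 0.03 was not called (adjusted p = 0.927), and its highest value was that of rat 8. Without rat 8 it was -0.13 (adjusted p = 0.433). In the same rats, *Il1a* minus *Il1b* was 1.01 (SD 0.765, from 0.02 to 2.75) and above 0 in 12 of 12 (exact sign-flip permutation test over 12 rats, two-sided, adjusted p = 0.00293 over 12 pairs of genes; the smallest p that 12 rats allow is 0.000488). The 2 genes are neighbors on chromosome 3, 50.8 kb from end to end of their probes.

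The log2 ratio of *Il1b* also lay below that of *Il1rn*, with a difference of -0.55 (SD 0.618) that was below 0 in 11 of 12 rats (adjusted p = 0.0234, same permutation test). In 1 rat it was above 0, at 0.51. When only the Cy5-labeled allogeneic samples were used, this difference was -0.38 and did not pass the threshold.

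*Il18*, a ligand that caspase-1 activates as it does IL-1β, was lower by 1 of 2 probes. Probe 1 ran from -0.64 to 0.22 with a median of -0.24 and 10 of 12 rats below 0 (mean -0.23, SE 0.0713, adjusted p = 0.0456). Probe 2 ran from -1.43 to 1.66 with a median of -0.26 and 9 of 12 rats below 0 (mean -0.15, adjusted p = 0.698). Both had their highest value in rat 8, and without it they were at -0.27 (adjusted p = 0.00919) and -0.31 (adjusted p = 0.177). Probe 1 kept its call in 2 of 12 fits that left out 1 rat, so the call sits at the threshold. *Il18* minus *Il1b* was 0.80 (SD 0.743), above 0 in 11 of 12 rats (adjusted p = 0.00586, exact permutation test).

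The IL-1 family receptors showed no call. The signaling receptor *Il1r1* had a mean of 0.08 (lowest -0.20, median 0.10, highest 0.27, adjusted p = 0.237), and the decoy receptor *Il1r2*, which binds IL-1 without signaling, a mean of 0.12 (lowest -0.10, median 0.11, highest 0.37, adjusted p = 0.0713). Without rat 8, *Il1r2* was at 0.14 and passed (adjusted p = 0.0238), as it did without rat 10 (0.14, adjusted p = 0.0499). The difference between both receptors was -0.04 (SD 0.198, adjusted p = 0.525). The shared accessory chain *Il1rap* was at 0.02, the IL-36 receptor *Il1rl2* at 0.04, and the IL-18 receptor chains *Il18r1* and *Il18rap* at -0.02 and 0.03. *Il1rl1*, which encodes the IL-33 receptor ST2, had 2 probes at -0.06 and -0.28 that did not pass. Probe 2 ran from -1.18 to 1.41, its highest value was rat 8, and without that rat its mean was -0.43 (adjusted p = 0.0158). The genes from *Il1r2* to *Il18rap*, 6 in number, lie within 361 kb on chromosome 9. The receptor-like *Il1rapl1* and *Il1rapl2*, known from neurons, were at 0.04 and -0.0049 and well above background on 7 arrays or fewer of 24 in either sample. The secretory pathway gene *Il1rl1l* was at 0.04.

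In the γ chain family, 7 of 16 probes and 6 of 13 genes were lower, and 0 were higher, beside 8.48% lower and 8.78% higher of all probes. The median over its probes was -0.16. *Il2rb*, the β chain through which IL-2 and IL-15 signal, was lower in 12 of 12 rats by both probes. By probe 1, the levels ran from 6.90 to 7.30 with a median of 7.15 in the allogeneic-labeled samples and from 7.29 to 8.64 with a median of 7.82 in the syngeneic ones. The log2 ratio of probe 1 ran from -1.49 in rat 11 to -0.33 in rat 6 with a median of -0.59 (mean -0.75, SE 0.117, adjusted p = 0.000929). That of probe 2 ran from -1.10 in rat 11 to -0.20 in rat 4 with a median of -0.38 (mean -0.51, SE 0.0845, adjusted p = 0.00145). In both probes, rats 8, 9, 11 and 12 formed the low end. Without an offset in the background correction, probe 1 was at -1.14 (adjusted p = 0.000361).

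*Il2rg*, the shared γ chain, gave different results by its 2 probes. Probe 1 ran from -0.70 to 0.04 with a median of -0.31 and 10 of 12 rats below 0 (mean -0.32, SE 0.0742, adjusted p = 0.0104). Probe 2 ran from -0.13 to 0.10 with a median of -0.05 and 8 of 12 rats below 0 (mean -0.03, adjusted p = 0.413). Both were well above background in both samples on 24 of 24 arrays, so the second is not a probe without signal. With the γ chain probes averaged, the gene was at -0.17 and passed. The difference between probes was not tested.

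The probes that agree in *Il2rb* and differ in *Il2rg* and *Il18* are shown in the same way, as the first 30 bases of 60; the files give no coordinates for those of *Il2rb*.
*Il2rb* probe 1: tattttatgtgttcttggaagatgctggta
*Il2rb* probe 2: gtgcagcctgttgacggttgagggtccctg
*Il2rg* probe 1, chrX:89417930-89417989, minus strand: gaactgaggtggaaaagcagatacatagaa
*Il2rg* probe 2, chrX:89412792-89413006, minus strand: atctcccaagagtggtggaacccagcagac
*Il18* probe 1, chr8:53946488-53946547, plus strand: atcttctgcaacctccaggatcaggaaaaa
*Il18* probe 2, chr8:53962059-53962118, plus strand: gccaaaaggaagatgatgctttcaaactcg
The probes of *Il2rg* and of *Il18* thus sit at separate places of their genes, and *Il2rg* probe 2 spans 215 bases of the genome.

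*Il2ra*, the α chain that raises the affinity for IL-2 and marks activated T cells, was lower in 12 of 12 rats, from -0.67 in rat 11 to -0.05 in rat 10 with a median of -0.11 (mean -0.21, SE 0.0545, adjusted p = 0.0193). Most rats lay close to 0 and a few lower. In the same rats, the log2 ratio of *Il2rb* lay below that of *Il2rg* (means over probes), with a difference of -0.46 (SD 0.255). It ran from -0.99 to -0.18 and was below 0 in 12 of 12 (adjusted p = 0.00293, exact permutation test). For *Il2ra* against *Il2rg* the difference was -0.03 (SD 0.157, adjusted p = 0.525). The *Il2rg* mean joins probes at -0.32 and -0.03, and the pairs were not tested by single probes. *Il2*, the T cell growth factor itself, was near the limit of detection, clearly above background on 3 (allogeneic-labeled) and 5 (syngeneic) of the 24 arrays. Its log2 ratio ran from -0.33 to -0.03 with a median of -0.12, all rats below 0 (mean -0.14, SE 0.0284, adjusted p = 0.00571). The size depends on the background step, since it was -0.56 without an offset and -0.95 in the authors' series table.

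*Il9*, a product of helper T cells, and its receptor *Il9r* were both lower. The *Il9* probe was clearly above background on 8 of the allogeneic-labeled and on 21 of the syngeneic samples of the 24 arrays. Its log2 ratio ran from -1.63 in rat 11 to -0.04 in rat 1 with a median of -0.39, and 12 of 12 rats were below 0 (mean -0.59, SE 0.134, adjusted p = 0.00919). Without an offset the mean was -1.22, and with the scanner software's processed signals -1.85. *Il9r* ran from -1.50 in rat 11 to 0.07 in rat 8 with a median of -0.44 and 11 of 12 rats below 0 (mean -0.52, SE 0.113, adjusted p = 0.00683). Rat 11 was thus the lowest in *Il2rb*, *Il2ra*, *Il2*, *Il9* and *Il9r* alike, and also in *Il2rg* probe 1.

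The other members of the family were not called. *Il7r*, the receptor chain of naive and memory T cells, ran from -0.80 to 0.43 with a median of -0.18 (mean -0.18, adjusted p = 0.198), and without rat 8 it was at -0.23 (adjusted p = 0.0391). *Il21r* ran from -1.05 to 0.47 (mean -0.28, adjusted p = 0.143). *Il15*, a ligand for *Il2rb* made by stromal and myeloid cells, had probes at 0.15 (from -0.28 to 0.93, the highest in rat 8, and 0.08 without it) and 0.0052, the second of which was well above background on 6 and 5 of 24 arrays. *Il4* ran only from -0.03 to 0.05 (mean 0.01, adjusted p = 0.784). *Il4ra*, its receptor, ran from -0.56 to 0.21 with a median of -0.05 (mean -0.08, adjusted p = 0.441). The ligands *Il7* and *Il21* were at -0.01 and 0.01 and well above background on 2 of 24 arrays in each sample. *Il7* minus *Il7r* was 0.17 (adjusted p = 0.183), and without rat 8 it was 0.23 and passed, while *Il4ra* minus *Il2rg* was 0.10 (adjusted p = 0.183).

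**Figure D2:**
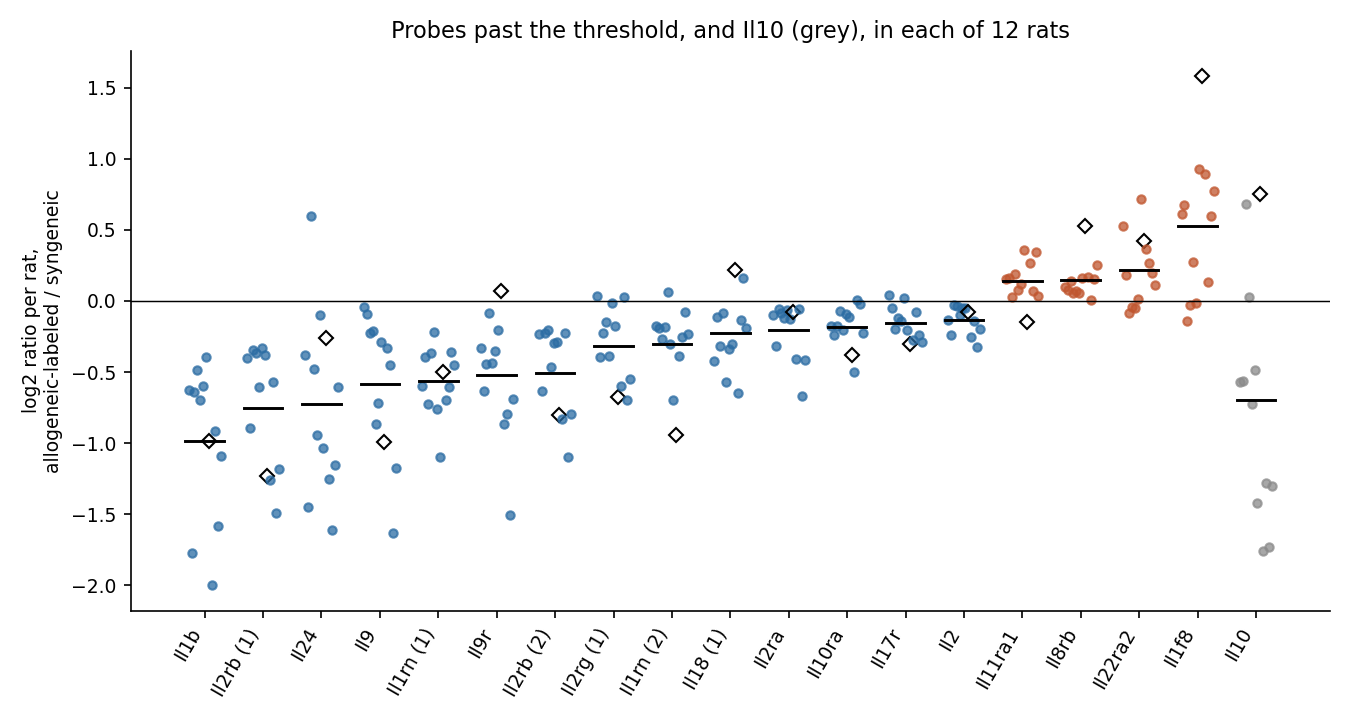
Log2 ratio (allogeneic-labeled over syngeneic, vertical axis) of the 18 called probes and *Il10* in each of 12 rats; bars are means, blue is lower, orange higher, grey not called, and open diamonds mark rat 8. All 12 points lie below 0 for *Il1b*, both *Il2rb* probes, *Il1rn* probe 1, *Il9*, *Il2ra* and *Il2*, and rat 8 is the highest point in *Il1f8*, *Il8rb* and *Il10*.

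Among the IL-10 family, *Il24*, a ligand that acts on epithelial cells through the IL-20 receptors, had levels from 12.92 to 14.15 with a median of 13.50 in the allogeneic-labeled samples and from 13.42 to 15.00 with a median of 13.96 in the syngeneic ones. Its log2 ratio ran from -1.61 in rat 10 to 0.60 in rat 3 with a median of -0.77. Rat 3 was the only one above 0, and the mean was -0.72 (SE 0.173, adjusted p = 0.0118). *Il10*, the anti-inflammatory ligand whose probe lies within 127 kb of that of *Il24* on chromosome 13, ran from -1.76 in rat 9 to 0.75 in rat 8 with a median of -0.65. Its mean of -0.70 (SE 0.231) did not pass (adjusted p = 0.0559), with 9 of 12 rats below 0. Without rat 8 it was -0.83 and passed (adjusted p = 0.0116), without rat 3 it was -0.82 (adjusted p = 0.0226), and it also passed with the slide as a block (adjusted p = 0.019). In all, *Il10* passed in 2 of 12 fits without 1 rat and in 6 of 15 alternatives. It did not pass by the mixed-effects ANOVA, by the exact signed-rank test, in the authors' series table or without array 1 of rat 10. The slide means of *Il10* were -0.11, -0.47 and -1.52, a spread that did not pass the test between slides (limma F test, adjusted p = 0.927). Many other members had this same adjusted p, so it cannot tell whether the slides differ in *Il10*.

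*Il10ra*, the receptor chain that binds IL-10, was lower in 11 of 12 rats, from -0.50 to 0.0092 with a median of -0.17 (mean -0.18, SE 0.0407, adjusted p = 0.00809). *Il22ra2*, a soluble receptor that captures IL-22, was higher, from -0.08 to 0.72 with a median of 0.19 and 9 of 12 rats above 0 (mean 0.22, SE 0.0689, adjusted p = 0.0461). It kept its call in 4 of 12 fits without 1 rat and not without rat 8 (0.20, adjusted p = 0.0582). *Il20ra*, next to it on chromosome 1, had a mean of 0.07 (adjusted p = 0.0684), was well above background on 8 and 5 of 24 arrays, and passed without rat 10 (0.08, adjusted p = 0.0445).

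The gp130 family had 1 call in 7 probes, beside 17.3% of all probes on the array. *Il11ra1*, the receptor of IL-11, ran from -0.15 in rat 8 to 0.36 with a median of 0.14, and 11 of 12 rats were above 0 (mean 0.14, SE 0.0403, adjusted p = 0.0325). It kept its call in 6 of 12 fits without 1 rat, and without rat 8, the only one below 0, the mean was 0.16 (adjusted p = 0.0039). *Il6*, the acute-phase ligand, had probes with means of 0.29 and 0.30, neither called (adjusted p = 0.401 and 0.441). Both means rest on rat 8, with log2 ratios of 2.64 and 2.94 where the next highest rat had 0.83 and 0.81. Without rat 8 the means were 0.08 (adjusted p = 0.546) and 0.06 (adjusted p = 0.654). In rat 8 the level of probe 1 was 13.06 in the allogeneic-labeled and 10.42 in the syngeneic sample, against a median of 12.50 and 12.44 over the rats other than rat 10. *Il6ra*, the α chain for IL-6, ran from -0.34 to 0.20 (mean 0.0015, adjusted p = 0.987), and *Il6st*, its signaling partner, from -0.41 to 0.87 (mean 0.03, adjusted p = 0.88; -0.05 without rat 8). Their difference was -0.03 (SD 0.440, adjusted p = 0.828) and 0.04 without rat 8. *Il11* was at 0.02 and *Il27ra*, the IL-27 receptor, at 0.09 (0.05 without rat 8).

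*Il13ra1*, a chain of the IL-13 receptor, had its 1 high log2 ratio in the same rat as *Il6*. Over the rats other than rat 10, its median level was 12.36 in both samples. In rat 8 the level was 12.58 in the allogeneic-labeled sample and 10.09 in the syngeneic one, so the syngeneic level was the unusual one. The log2 ratio of rat 8 was 2.48, and the next highest rat had 0.17. The mean was 0.21 (adjusted p = 0.53) and -0.0015 without rat 8 (adjusted p = 0.98). The decoy *Il13ra2* ran from -0.83 to 1.00 (mean 0.02, adjusted p = 0.941; -0.07 without rat 8), and the difference between both was 0.19 (SD 0.500, adjusted p = 0.338) and 0.07 without rat 8. *Il13* itself, a helper T cell product, ran from -0.33 to 0.11 with a median of -0.06 (mean -0.07, adjusted p = 0.197). Over all members, rat 8 held the highest value of 19 probes and the lowest of 10, together 29 of 67, more than any other rat.

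**Figure D3:**
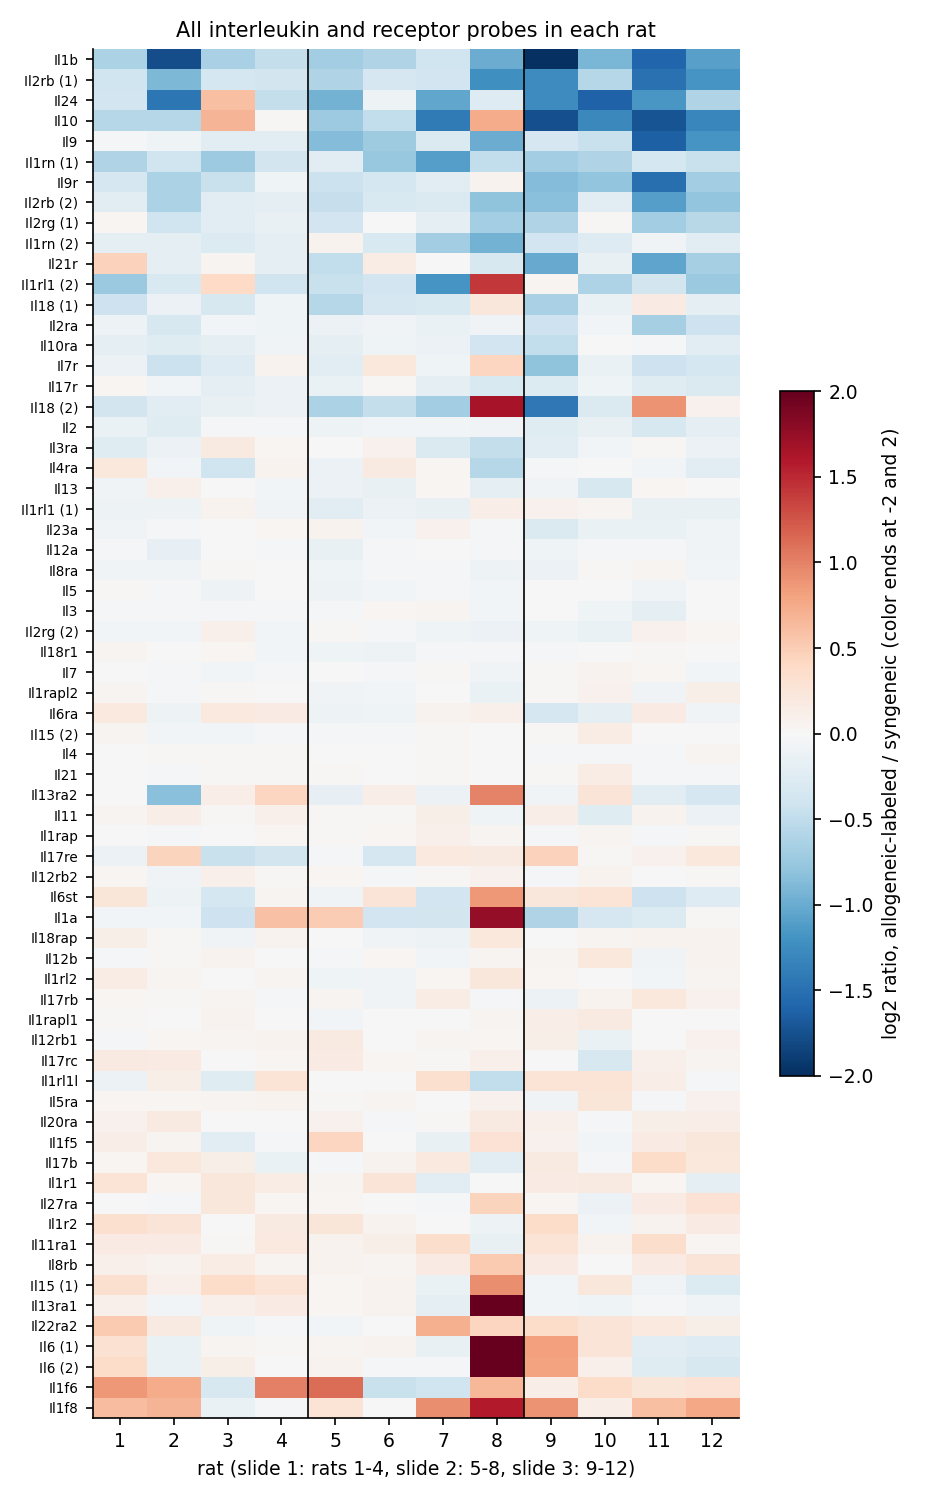
Log2 ratio (allogeneic-labeled over syngeneic, color, ending at -2 and 2) of each of the 67 probes (rows, ordered by mean) in each of 12 rats (columns), with lines between slides. Red cells in the column of rat 8 mark *Il6*, *Il13ra1*, *Il1a* and *Il18* probe 2, and the blue rows at the top are *Il1b*, *Il2rb* probe 1, *Il24* and *Il10*.

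The rest gave few calls. *Il17r*, the shared IL-17 receptor chain, was lower, from -0.30 to 0.04 with a median of -0.17 and 10 of 12 rats below 0 (mean -0.15, SE 0.0333, adjusted p = 0.00708). Among the other IL-17 genes, *Il17b* was at 0.08, *Il17rb* at 0.04, *Il17rc* at 0.04 and *Il17re* at 0.02, and none passed, although *Il17rc* did without rat 10 (0.08, adjusted p = 0.0313). *Il8rb*, the receptor for CXC chemokines of neutrophils, was higher in 12 of 12 rats, from 0.0073 to 0.53 with a median of 0.12 (mean 0.15, SE 0.0385, adjusted p = 0.0181). The highest was rat 8, and without it the mean was 0.11 (adjusted p = 0.00288). *Il8ra* was at -0.04 and not called (adjusted p = 0.131). The IL-12 family, which steers T cells toward interferon-γ and IL-17, had 0 of 5 probes called by limma, beside 17.3% of all probes. At an unadjusted p under 0.05 there was 1, that of *Il12a*, which also passed by the exact signed-rank test. *Il12a* was at -0.05, *Il23a* at -0.05, *Il12rb1* at 0.04 and *Il12rb2* at 0.02. *Il12b*, the chain shared by IL-12 and IL-23, ran from -0.06 to 0.22 (mean 0.03, adjusted p = 0.367) and rose well above background on 1 of the 24 arrays in each sample. *Il12a* minus *Il12b* was -0.08 (SD 0.0892), below 0 in 10 of 12 rats (adjusted p = 0.0234, exact permutation test), although *Il12a* was well above background on 1 and 2 arrays only. When only the Cy3-labeled allogeneic samples were used, this pair did not pass (-0.09). The β chain cytokines *Il3* and *Il5* were at -0.04 and -0.04 and their receptors *Il3ra* and *Il5ra* at -0.10 and 0.05, and none passed (1 of 4 probes, *Il5*, at an unadjusted p under 0.05). The helper T cell cluster of *Il4*, *Il13*, *Il5* and *Il3*, which spans 615 kb on chromosome 10, thus had no called gene.

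Of 28 ligand and antagonist probes 7 were lower and 1 was higher, and of 39 receptor probes 7 were lower and 3 higher. Of all probes on the array, 8.48% were lower and 8.78% higher. Of 7 genes with 2 probes, *Il1rn* and *Il2rb* had both called, *Il2rg* and *Il18* had 1 and *Il1rl1*, *Il6* and *Il15* had none. Detection limits part of the list: 53 of the 67 probes exceeded background clearly in either sample on 12 arrays or more, and for the other 14 a small ratio says little about the RNA.

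Many probe values also depended on the dye. A difference between the dye orientations passed the threshold for 33 of 67 probes (49.3%), close to the 52% of all probes on the array (limma, n = 12 rats). Means over both arrays of a rat cancel a dye effect of the same size on both. *Il17r* was at -0.41 with the allogeneic sample in Cy5 and at 0.10 in Cy3, and it was the 1 called probe with opposite signs. *Il10ra*, *Il2rg* probe 1, *Il2ra*, *Il8rb* and *Il11ra1* kept their sign but passed the threshold only in Cy5, *Il22ra2* likewise at 0.24 against 0.20, and *Il18* probe 1 only in Cy3. Of the remaining members, 21 had opposite signs, and *Il4ra* and *Il11* passed the threshold in both directions. *Il4ra* was at -0.36 and 0.21, and *Il11* at -0.15 and 0.19. In both orientations 10 called probes had the same sign and passed, which are those of *Il1b*, *Il1rn*, *Il2rb*, *Il2*, *Il9*, *Il9r*, *Il24* and *Il1f8*.

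**Figure D4:**
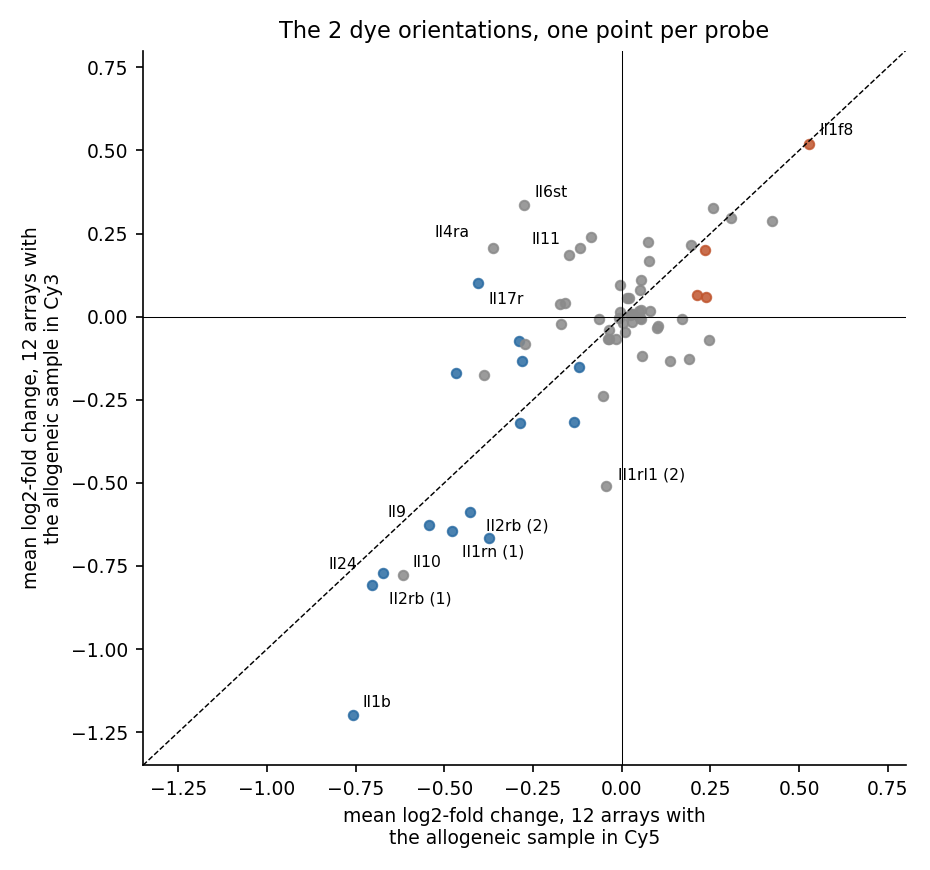
Mean log2-fold change over the 12 arrays with the allogeneic sample in Cy5 (horizontal) and over the 12 with it in Cy3 (vertical), 1 point per probe, blue lower, orange higher, grey not called; the dashed line marks equal values. *Il1b*, *Il2rb*, *Il24*, *Il9* and *Il1f8* lie in the same quadrant by both, and *Il17r*, *Il4ra*, *Il6st* and *Il11* do not.

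Genes that act with interleukins were taken from a list of 44, of which 41 were measured with 47 probes. Lower were 10 probes, higher was 1, and the median was -0.05, beside 8.48% lower and 8.78% higher of all probes. Without rat 8, 13 were lower and 2 higher. The GM-CSF ligand *Csf2* was lower at -0.61 (SE 0.0884, adjusted p = 0.000616), with its receptor chains *Csf2ra* at -0.43 (adjusted p = 0.0025) and *Csf2rb*, the β chain shared with IL-3 and IL-5, at -0.12 (adjusted p = 0.0104). The STAT-induced inhibitors *Socs1* (-0.35, adjusted p = 0.00343) and *Cish* (-0.23, adjusted p = 0.00497) were lower in every rat, while *Socs2* and both *Socs3* probes did not pass. *Syk* and *Ptpn6*, a kinase and a phosphatase of blood cells, were lower at -0.46 and -0.41, and the TSLP receptor *Crlf2* at -0.30. Of the inflammasome, which activates caspase-1, *Nlrp3* was lower at -0.15 (adjusted p = 0.0399), *Pycard* by 1 of 2 probes at -0.37 (adjusted p = 0.0136), and *Casp1* was not called (median -0.11, 8 of 12 rats below 0). Its mean was 0.17 with 1 rat at 3.10, and -0.09 without rat 8 (adjusted p = 0.0713). *Jak3*, the kinase bound to the γ chain, was the 1 higher probe at 0.12 (adjusted p = 0.00477), in 11 of 12 rats. The IL-1 receptor adaptor *Myd88* was at -0.17 and did not pass (adjusted p = 0.105), and *Irak1*, *Irak2*, *Irak3* and *Irak4* did not pass either.

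**Figure D5:**
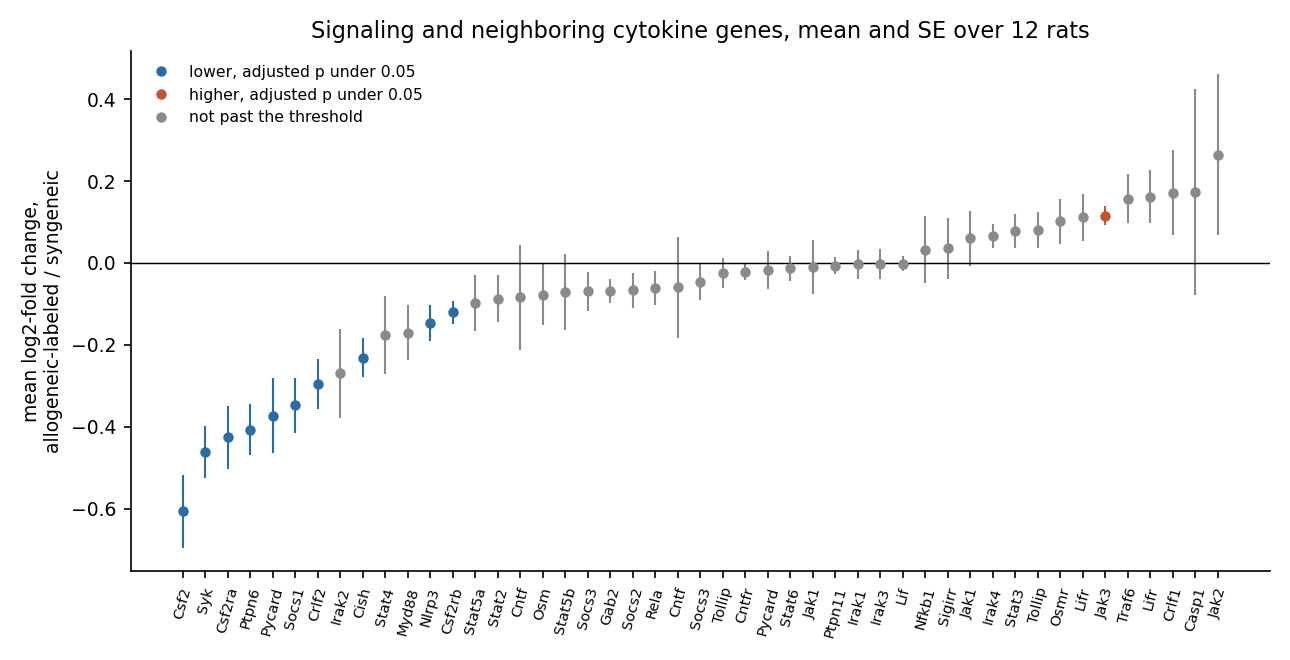
Mean log2-fold change (allogeneic-labeled over syngeneic, vertical axis) with SE over 12 rats for the 47 probes of signaling and neighboring cytokine genes, ordered by value. Blue points are the 10 lower calls, led by *Csf2* and *Syk*, and the orange point is *Jak3*.

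Markers of cells that carry many of these receptors were partly lower too, and their counts stand beside 8.48% lower and 8.78% higher of all probes. Of 16 T cell marker probes 6 were lower and 0 higher (median -0.14), and their summed linear level ranged from 4410 to 6540 in the allogeneic-labeled and from 5010 to 8980 in the syngeneic samples, lower in 8 of the 11 rats other than rat 10. The lower ones were *Cd5* (-0.97), *Lck* (-0.70), *Cd6* (-0.63), *Cd8b* (-0.49, in 12 of 12 rats), *Cd8a* (-0.32) and *Cd2* (-0.26). *Cd3g* (-0.40), *Cd3d* (-0.16), *Cd3e* (-0.11), *Lat* (-0.08), *Cd247* (-0.07) and *Cd4* (-0.05) did not pass. Neither did both *Zap70* probes (0.09 and 0.08). *Cd28* and *Trat1*, not called either, were well above background on 2 arrays in each sample. Of 10 NK cell and cytotoxicity probes 5 were lower and 0 higher. Their summed level ran from 2060 to 2700 against 2190 to 3730, lower in 11 of these 11 rats. Both *Gzmb* probes, *Gzma*, *Nkg7* and *Klrb1a* were the lower ones. The receptors *Ncr1* (-0.0054), *Klrk1* (-0.01), *Ncr3* (-0.04) and *Klrd1* (-0.09) were not called, and neither was *Prf1* (-0.08). Of 14 macrophage probes 6 were lower and 2 higher, with a summed level from 23600 to 47500 against 20800 to 60900. *Aif1* was at -1.27 and *Itgam* at -0.60, but *C1qa* at 0.21 and *C1qc* at 0.19 were the higher ones. The study gives *Aif1* with the opposite sign, on the arrays and by RT-PCR. B cell (4 probes), neutrophil (4), mast cell (5) and keratinocyte (2) markers had 0 calls (limma; 1 B cell probe and none of the others at an unadjusted p under 0.05), while *Col1a2* of fibroblasts was higher at 0.55 and 3 of 7 endothelial probes were higher. Without rat 8, 6 T cell, 6 NK cell and 7 macrophage probes were lower, and 3 of 3 fibroblast probes were higher. The part of these cells in the lower *Il1b*, *Il2rb*, *Il9* and *Il9r* signals was not tested. The skin label was borne out as far as the array allows, since *Dsc3* and *Trp63* of keratinocytes and *Col1a2* were well above background on 24 of 24 arrays, but only 2 of 17 keratinocyte markers were measured.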

How the data were processed

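Skin explants of 12 BN rats were compared on 24 two-color Agilent arrays, 2 per rat with exchanged dyes. Per the file headers, mean spot and median background intensities in Cy3 and Cy5 were extracted by Feature Extraction 9.5.1.1, and processed intensities, background-subtracted and dye-normalized, were deposited beside them with their log10 ratios. A table of log2 ratios per spot was deposited too, with its background treatment unstated. Its direction, taken as allogeneic over syngeneic from the sample titles, was checked against the scanner values. Its columns were centered (medians from -0.0254 to 0.0221) and had correlations of 0.698 to 0.989 with the ratios turned by the dye labels. The methods name loess normalization and a mixed-effects ANOVA. The labels and the methods name different amplification kits.

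Intensities were corrected by normexp (offset 50) and normalized by loess within arrays. Control and outlier spots were left out, arrays were turned by their labels, values were averaged over spots of a probe and over both arrays of a rat, and each probe was tested against 0 with limma 3.58.1 (R 4.3.3, statmod 1.5.0, data.table version 1.17.8), adjusted over 8453 probes. This holds 12 rats as separate animals. For levels, channels were scaled between arrays (Aquantile). A gene was called if any probe was. A probe was well above background on an array where 50% or more of its spots were marked so by the scanner software. Log2 ratios of 12 pairs of genes were compared within rats by an exact sign-flip permutation test. The genes, lists and tests were chosen with earlier results of these data known. All members are named, called probes with full values and a fixed list of common ligands and receptors with ranges; *Il17a* and *Il18bp* were not analyzed here. From the lists, 1 pathway gene and 1 marker gene were left out and are not reported here. Alternatives covered background, scaling, dye, slide, test, dim probes and single rats. The code was tested on simulated data. The number of rats limits the precision, since both arrays of a rat hold the same RNA samples.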

Additional observations from a re-analysis of the deposited data

How the results depend on the processing

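Of 15 alternatives and 12 fits without 1 rat, each kept the sign of all 18 called probes except the use of Cy3 arrays alone, which turned *Il17r* to 0.10. The number of called members lay between 15 and 23 in the other alternatives, and with the allogeneic sample in Cy5 alone it was 28. For all probes it was 2659 in that setting and 2500 with the allogeneic sample in Cy3 alone, against 1459. Without 1 rat each, 15 to 21 members and 1155 to 2087 probes of the array were called, the most without rat 8. With 1 orientation alone, *Il4ra* passed at 0.21 (Cy3) and *Il11* at -0.15 (Cy5), and *Il4ra* minus *Il2rg* was -0.16 and *Il6ra* minus *Il6st* 0.41 (Cy5), each opposite to its mean; the cause was not tested. Between 5 and 7 pairs of genes passed in every setting tried. Both *Il1rn* probes, *Il1b*, both *Il2rb* probes, *Il9r*, *Il9*, *Il24* and *Il1f8* passed in all alternatives and without any 1 rat, as did *Il2* where it was tested (it was among the dim probes left out in 1). With the slide as a block *Il11ra1*, *Il18* and *Il22ra2* lost their call. By the mixed-effects ANOVA and by the exact signed-rank test *Il18* and *Il22ra2* lost it, and in the authors' series table *Il11ra1* and *Il18* did. Of the 15 alternatives, *Il11ra1* kept its call in 10, *Il18* probe 1 in 7 and *Il22ra2* in 8. Without an offset, dim probes gave larger ratios, for *Il12a* -0.20, *Il5* -0.26 and *Il20ra* 0.26, which then passed. With the scanner software's processed signals, *Il2rg* probe 1 was at -0.62, *Il10ra* at -0.32, *Il2ra* at -0.34 and *Il22ra2* at 0.42, each over 1.5 times its mean above.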
